A study of Homo sapiens with 12 samples.

Results

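The leukocyte immunoglobulin-like receptors LILRB1, LILRB2, LILRB3, LILRB4, LILRA1, LILRA2 and LILRA5 were followed together with the myeloid checkpoint genes LAIR1, SIRPA and CD47 in leukemia cells depleted of PSPC1 or PU.1. These 10 genes were taken by their symbols out of 60648 genes counted, and all 10 were present in both count tables. Both cell lines used, MOLM13 and OCIAML5, come from human acute myeloid leukemia, and their poly(A) RNA was sequenced in 12 libraries, 2 in each of 6 groups. The groups were MOLM13 with a hairpin against PSPC1 and MOLM13 with a control hairpin, OCIAML5 with a hairpin against PSPC1 and OCIAML5 with a control hairpin, and, in a second experiment, OCIAML5 with a hairpin against PU.1 (gene SPI1) and OCIAML5 with a control hairpin of its own. All groups carried lentiviral hairpins and were selected with puromycin or sorted for GFP, and per the labels' protocols OCIAML5 was grown with added GM-CSF in every group. PSPC1 is an RNA-binding protein of nuclear paraspeckles, and PU.1 is the transcription factor that directs the myeloid lineage.

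LILRB receptors carry ITIM motifs in their cytoplasmic tails. Once phosphorylated by Src-family kinases, these recruit the phosphatases SHP-1, SHP-2 and SHIP and restrain signalling in monocytes and other myeloid cells. LILRA receptors have short tails and signal through the ITAM adaptor FcRγ, so the family pairs inhibitory and activating members with closely related extracellular domains. LAIR1 is an inhibitory receptor for collagens, and SIRPA is the inhibitory phagocyte receptor for CD47, a surface protein that protects cells from phagocytosis. In acute myeloid leukemia LILRB4 marks monocytic cases.

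PSPC1 stood at 27.7 and 28.6 CPM (counts per 1e6, scaled over all libraries) in MOLM13 PSPC1-knockdown libraries, against 133 and 137 CPM in their controls. In OCIAML5, PSPC1-knockdown libraries held 18.8 and 19.2 CPM of it and their controls 100.3 and 100.2 CPM. The PU.1-knockdown libraries held 46.4 and 45.2 CPM of SPI1, against 220 and 198 CPM in their controls. Total counts were 15.4 to 22.8 M per library in the PSPC1 experiment and 26.3 to 39.7 M in the PU.1 experiment. Whether the 2 libraries within a group are separate cultures, or carry different hairpins, is not in the labels, so p-values measure only how far these libraries differ, which may be technical variation. Of 8 markers of myeloid leukemia cells, PTPRC, CD33, CSF3R, FLT3, ITGAM and MPO were detected in all groups. Each of these changed after PU.1 knockdown, and several changed after PSPC1 knockdown, among them PTPRC, FLT3 and MPO. KIT stayed at or under 0.692 CPM and ANPEP had 0 to 8 counts. Erythroid markers summed to at most 0.382 CPM and epithelial and stromal markers to at most 3.17 CPM in any library. In bulk RNA, fewer cells of a type and less RNA per cell cannot be told apart.

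LAIR1 and the 7 LILR genes lie in the leukocyte receptor complex on chromosome 19 (GRCh38). In order along the chromosome they were LILRB3 (54216278 to 54223506, minus strand), LILRB2 (54273821 to 54281184, minus), LILRA5 (54307070 to 54313139, minus), LAIR1 (54351384 to 54370558, minus), LILRA2 (54572920 to 54590287, plus), LILRA1 (54593582 to 54602090, plus), LILRB1 (54617158 to 54637528, plus) and LILRB4 (54643889 to 54670359, plus). SIRPA lies on chromosome 20 (1894167 to 1940592, plus) and CD47 on chromosome 3 (108043094 to 108091862, minus). RefSeq promoter windows of 250 bases upstream of annotated starts (GRCh38.p14) were found for 9 of the 10 genes.

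The windows were searched on both strands for 2 strings that hold the GGAA core read by ETS factors, the family of PU.1. The strings were GAGGAAG and ACAGGAAG, and no window of a member held both. They were chosen after the promoters had been read. ACAGGAAG, or its reverse complement CTTCCTGT, was present upstream of LILRA1, LILRA2, LILRB3 and LILRB4. It was in 2.42% of all 35116 promoter windows of that length, and upstream of 2.97% of the 27305 genes with such windows. GAGGAAG, or its reverse complement CTTCCTC, was present upstream of LAIR1. It was in 11.2% of all windows and upstream of 13.4% of these genes. Neither was in the windows of LILRB1, LILRB2, LILRA5 or CD47, which says only that these letters are not there. The sites are shown to let the genes' upstream sequence be compared, 5′ to 3′ on each gene's own strand, with the string in capitals. The LILR sites were taken from windows that hold a run of bases shared by these genes, in a stretch that begins near it. For LILRB2 the capitals mark the closest match to CTTCCTGT in that stretch. This match differs by the substitution C5T, counted from the first base of the string.
LILRA2, chr19:54573729-54573758, plus strand, 50 bases before a start: gggcagttgcaCTTCCTGTgtggttgcaca
LILRB4, chr19:54662883-54662912, plus strand, 91 bases before a start: gggcagtttccCTTCCTGTgggctgctgat
LILRA1, chr19:54594071-54594100, plus strand, 115 bases before a start: gggtagttctgCTTCCTGTgtggctgcaga
LILRB3, chr19:54223099-54223128, minus strand, 110 bases before a start: tggcagttcctCTTCCTGTgggctgaggat
LILRB2, chr19:54280641-54280670, minus strand, 31 bases before a start: gggcagttccgCTTCTTGTgtggctgcaga
LAIR1, chr19:54370704-54370733, minus strand, 164 bases before a start: aatctgtgttgCTTCCTCagccccatcctg
The letters around the string in the 5 LILR sites are alike, but the sites were picked by a shared run of bases, so likeness was partly selected for. The LILRA2 and LILRB4 sites also lie inside exons of other annotated transcripts of these genes. A match describes sequence only, and binding was not measured.

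In MOLM13, 7 members of the leukocyte receptor complex rose after PSPC1 knockdown. LILRB1, LILRB2, LILRB3, LILRB4, LILRA1, LILRA2, LAIR1 and CD47 rose and SIRPA fell, so that all 9 members tested had an adjusted p under 0.05, with 8 above control and 1 below. Of all 16457 genes tested, 57.0% passed, 27.6% higher and 29.5% lower. The median log2 fold change of the 9 members was 0.60, against 0.01 over all genes tested. Of the other receptors of the complex, LAIR2 (adjusted p = 1.0), LILRA4 (adjusted p = 0.081) and LILRA6 (adjusted p = 0.21) were tested and did not pass. The plot of levels by library shows each value.

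**Figure D1:**
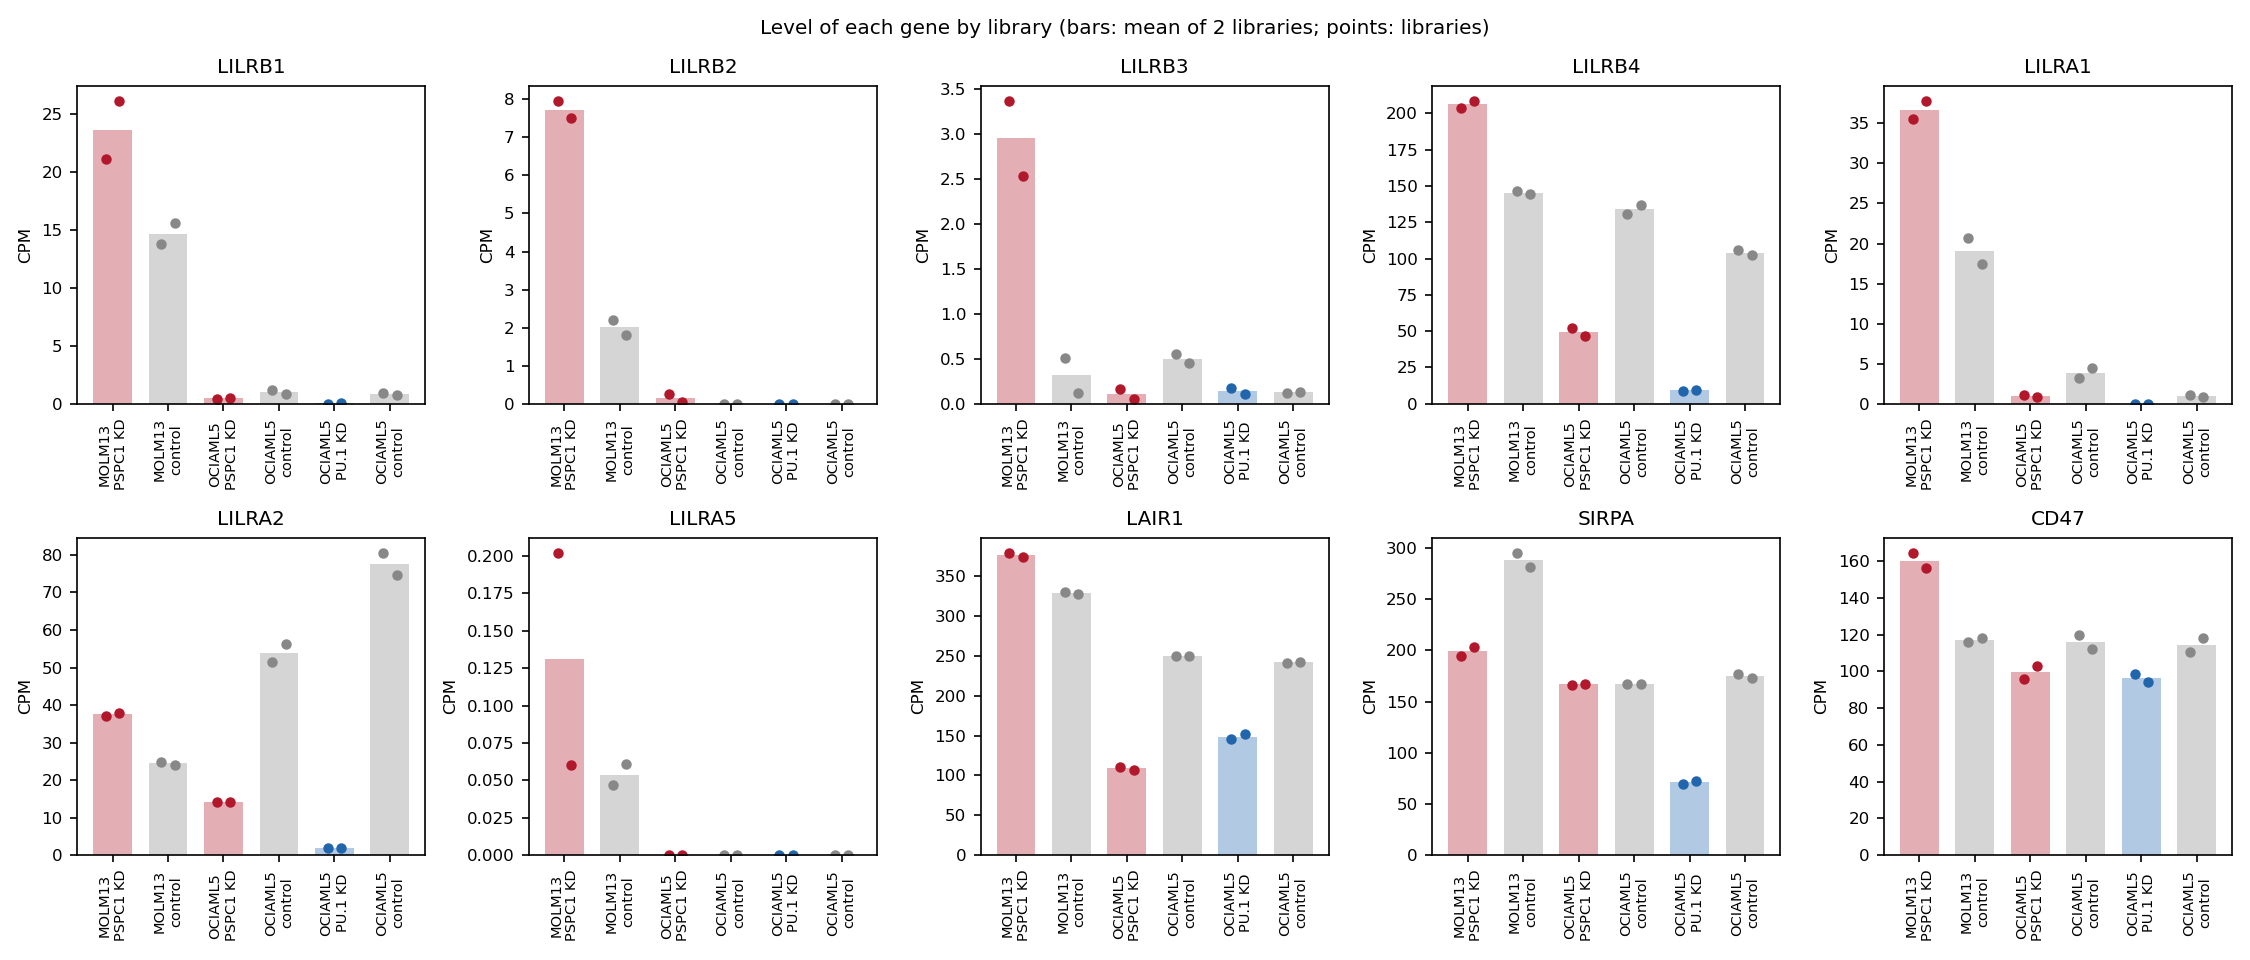
Level of each of the 10 genes (CPM, linear axis from 0 with its own scale per panel) in 6 groups of 2 libraries; bars are group means and points single libraries, and each knockdown stands left of its own control. Apart from LILRA5, at 3 counts or fewer in any library, the LILR genes and LAIR1 sit above control after PSPC1 knockdown in MOLM13 and, apart from LILRB2 and LILRA5, below control after PSPC1 knockdown in OCIAML5.

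Among the inhibitory receptors, LILRB4 stood at 204 and 208 CPM in MOLM13 PSPC1-knockdown libraries, against 146 and 145 CPM in controls. Both knockdown libraries lay above both controls, and the log2 fold change was 0.49 ± 0.053 (SE, n = 2 per group; adjusted p = 2.4e-11, edgeR quasi-likelihood test). LILRB1, a receptor for HLA class I molecules, stood at 21.1 and 26.1 CPM after PSPC1 knockdown in MOLM13, against 13.8 and 15.6 CPM in controls. Its groups did not overlap either (log2 fold change 0.68 ± 0.16, SE; adjusted p = 3.3e-04). LILRB2, which also binds HLA class I, stood at 7.95 and 7.50 CPM after knockdown and at 2.19 and 1.82 CPM in controls. Its log2 fold change was 1.92 ± 0.35 (SE; adjusted p = 6.7e-06), a 3.79-fold higher level. LILRB3 was low throughout, at 3.37 and 2.54 CPM after knockdown (50 and 42 counts) and at 0.513 and 0.121 CPM in controls (11 and 2 counts). Its log2 fold change was 3.10 ± 0.63 (SE; adjusted p = 3.3e-05), and it was 4.50 without control replicate 1 and 2.49 without control replicate 2.

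The activating receptors moved the same way in MOLM13. LILRA1 stood at 35.6 and 37.8 CPM after PSPC1 knockdown, against 20.7 and 17.5 CPM in controls (log2 fold change 0.93 ± 0.14, SE; adjusted p = 6.4e-08). LILRA2, whose protein is known to bind immunoglobulins cut by microbial proteases, stood at 37.1 and 37.8 CPM after knockdown and at 24.8 and 24.1 CPM in controls (0.60 ± 0.098, SE; adjusted p = 6.1e-07). Neither gene's groups overlapped. LILRA5, another activating receptor, had 3 and 1 counts after knockdown and 1 and 1 in controls, and 0 counts in all 8 OCIAML5 libraries, and it was not tested. In MOLM13 the ratio of knockdown to control for LILRA5 was 2.42, with a 95% counting interval of 0.347 to 26.7, so no difference was detectable at this depth.

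LAIR1, the most abundant member per kilobase of exon after PSPC1 knockdown in MOLM13, changed least. It stood at 379 and 374 CPM after knockdown, against 331 and 327 CPM in controls (log2 fold change 0.18 ± 0.043, SE; adjusted p = 2.8e-04). SIRPA went the other way, with 195 and 203 CPM after knockdown and 296 and 282 CPM in controls. Its 2 groups were well apart (log2 fold change -0.55 ± 0.046, SE; adjusted p = 1.1e-14). CD47, its ligand, stood at 165 and 156 CPM after knockdown, against 116 and 118 CPM in controls (0.44 ± 0.056, SE; adjusted p = 1.8e-09). SPI1 itself stood at 333 and 363 CPM after PSPC1 knockdown in MOLM13 and at 260 and 249 CPM in controls (0.44, adjusted p = 7.9e-11).

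Markers of T and NK cells, which also express LILRB1 and LAIR1, summed to 10.8 and 11.5 CPM after knockdown and to 22.3 and 24.2 CPM in MOLM13 controls. Of the 8 markers, NKG7 made up most of this sum, CD3E and CD3G had 1 count at most in any library, and NCR1 had 0. The sum was lower in the knockdown group, in which LILRB1 and LAIR1 were higher. The 8 myeloid markers summed to between 972 and 979 CPM after knockdown and between 971 and 972 CPM in controls, but single markers moved, 2 of 6 tested higher and 2 lower. PTPRC, the pan-leukocyte phosphatase CD45, stood at 420 and 421 CPM after knockdown, against 253 and 254 CPM in controls. FLT3, a receptor kinase of progenitors, stood at 174 and 169 CPM after knockdown, against 329.6 and 323 CPM in controls. MPO, the granule peroxidase, stood at 3.37 and 3.20 CPM after knockdown, against 38.5 and 35.9 CPM in controls. PTPRC was thus higher, and FLT3 and MPO lower, in the group in which most LILR genes were higher. Over all genes tested 57.0% passed there, and the part of any of these marker transcripts in the result was not tested.

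In OCIAML5, PSPC1 knockdown lowered most of the same receptor genes. LILRB1, LILRB3, LILRB4, LILRA1, LILRA2, LAIR1 and CD47 fell, LILRB2 rose at a trace level, and SIRPA did not pass the test. That is 8 of 9 members tested, 1 higher and 7 lower, where 56.0% of all genes tested passed (27.5% higher and 28.4% lower). The median log2 fold change of the 9 members was -1.18, or -1.20 with a floor of 3 counts over each group, against 0.02 over all genes tested. Of the 8 calls, 5 held at an adjusted p of 0.01, those of LILRB4, LILRA1, LILRA2, LAIR1 and CD47.

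LILRB4 stood at 52.2 and 46.7 CPM in OCIAML5 PSPC1-knockdown libraries, against 131 and 137 CPM in controls. This was a 2.66-fold lower level with no overlap (log2 fold change -1.41 ± 0.059, SE, n = 2 per group; adjusted p = 3.6e-26, edgeR quasi-likelihood test). LAIR1 stood at 110.4 and 107.5 CPM after knockdown, against 250.03 and 249.9 CPM in controls. Its log2 fold change was -1.18 ± 0.047 (SE; adjusted p = 4.1e-27), with the controls almost identical to each other. LILRA2 stood at 14.2 and 14.1 CPM after knockdown and at 51.4 and 56.2 CPM in controls (-1.91 ± 0.10, SE; adjusted p = 2.7e-22). LILRA1 was scarcer, at 1.08 and 0.833 CPM after knockdown and 3.19 and 4.49 CPM in controls, and its log2 fold change was -1.94 ± 0.27 (SE; adjusted p = 3.0e-08).

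The remaining LILR genes were near the limit of detection in OCIAML5. LILRB1 had 10 and 9 counts after knockdown and 21 and 13 in controls (log2 fold change -1.12 ± 0.43, SE; adjusted p = 0.025). The groups did not overlap, but the call was lost without knockdown replicate 1 (adjusted p = 0.14), without control replicate 1 (adjusted p = 0.22) and with the 4 libraries of the line alone (adjusted p = 0.10). LILRB3 had 4 and 1 counts after knockdown and 10 and 7 in controls (-2.01 ± 0.86, SE; adjusted p = 0.043), and this call was lost without any 1 of the 4 OCIAML5 libraries (-3.01 to -1.54, adjusted p = 0.055 to 0.21) and without either MOLM13 knockdown library (adjusted p = 0.063 and 0.058). LILRB2 had 6 and 1 counts after knockdown and none in controls, an at least 1.88-fold higher level against the floor of 3 counts over the group (adjusted p = 0.023). That call was lost without knockdown replicate 1 (adjusted p = 0.28) and without either control (adjusted p = 0.094 and 0.073).

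SIRPA stood at 167 and 167 CPM after PSPC1 knockdown in OCIAML5 and at 167 and 168 CPM in controls, and its estimate of 0.02 ± 0.048 (SE) on the log2 scale missed the threshold (adjusted p = 0.81). CD47 stood at 96.1 and 103 CPM after knockdown, against 120 and 112 CPM in controls (-0.20 ± 0.057, SE; adjusted p = 0.0019). Its groups were apart by less than 10 CPM at their nearest, and the call was lost without knockdown replicate 1 (adjusted p = 0.066). SPI1 stood at 201 and 217 CPM after knockdown and at 204 and 182 CPM in controls, groups that overlapped (0.13, adjusted p = 0.023).

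Markers of B cells, another LILRB1-expressing lineage, summed to 12.7 and 13.7 CPM after PSPC1 knockdown in OCIAML5, against 23.1 and 24.9 CPM in controls. Of the 5 markers PAX5 made up most of the sum, MS4A1 had 0 counts in every library and CD79B 1 at most. The sum was lower in the group in which LILR genes were lower, and its part in the result was not tested. The 8 myeloid markers summed to between 858 and 867 CPM after knockdown and between 824 and 829 CPM in controls, with 2 of 6 tested higher and 3 lower. FLT3 stood at 25.8 and 25.4 CPM after knockdown, against 237 and 247 CPM in controls, and PTPRC at 680.2 and 660.3 CPM after knockdown, against 401 and 389 CPM in controls. PTPRC was thus higher and FLT3 lower in both lines, while most LILR genes rose in MOLM13 and fell in OCIAML5. Over all genes tested 56.0% passed in OCIAML5, and the markers' part in the result was not tested.

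PSPC1 knockdown raised 7 members in MOLM13 and lowered the same 7 in OCIAML5, all of those tested but SIRPA and LILRB2, and the difference was tested directly. Of 9 members tested, 8 differed between MOLM13 and OCIAML5, 7 with the higher effect in MOLM13 and 1 with the lower, where 30.5% of all genes tested passed this test (12.5% higher and 18.0% lower). The median difference over the 9 members was 1.80 on the log2 scale, against -0.06 over all genes. The targeted gene did not pass the same test (PSPC1 0.10 ± 0.11, SE; adjusted p = 0.52).

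LILRA1 differed by 2.86 ± 0.30 on the log2 scale (SE; adjusted p = 8.3e-11) and LILRA2 by 2.51 ± 0.14 (adjusted p = 3.8e-20). LILRB4 differed by 1.90 ± 0.079 (adjusted p = 5.1e-25) and LILRB1 by 1.80 ± 0.46 (adjusted p = 0.0019). These 4 genes rose in one line and fell in the other, and LAIR1 did likewise with a difference of 1.36 ± 0.063 (adjusted p = 3.5e-23). LILRB3 differed by 5.11 ± 1.06 (adjusted p = 1.3e-04), on 5 counts in the OCIAML5 knockdown group, and by 4.50 to 6.51 with 1 library left out. CD47 differed by 0.64 ± 0.079 (adjusted p = 4.7e-09), and SIRPA by -0.57 ± 0.067 (adjusted p = 1.4e-09). LILRB2, higher after knockdown in both lines, did not pass (-2.74 ± 1.83, SE; adjusted p = 0.29), and its 7 counts in OCIAML5 leave this difference poorly bounded. The plot of changes sets the 3 knockdowns side by side.

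**Figure D2:**
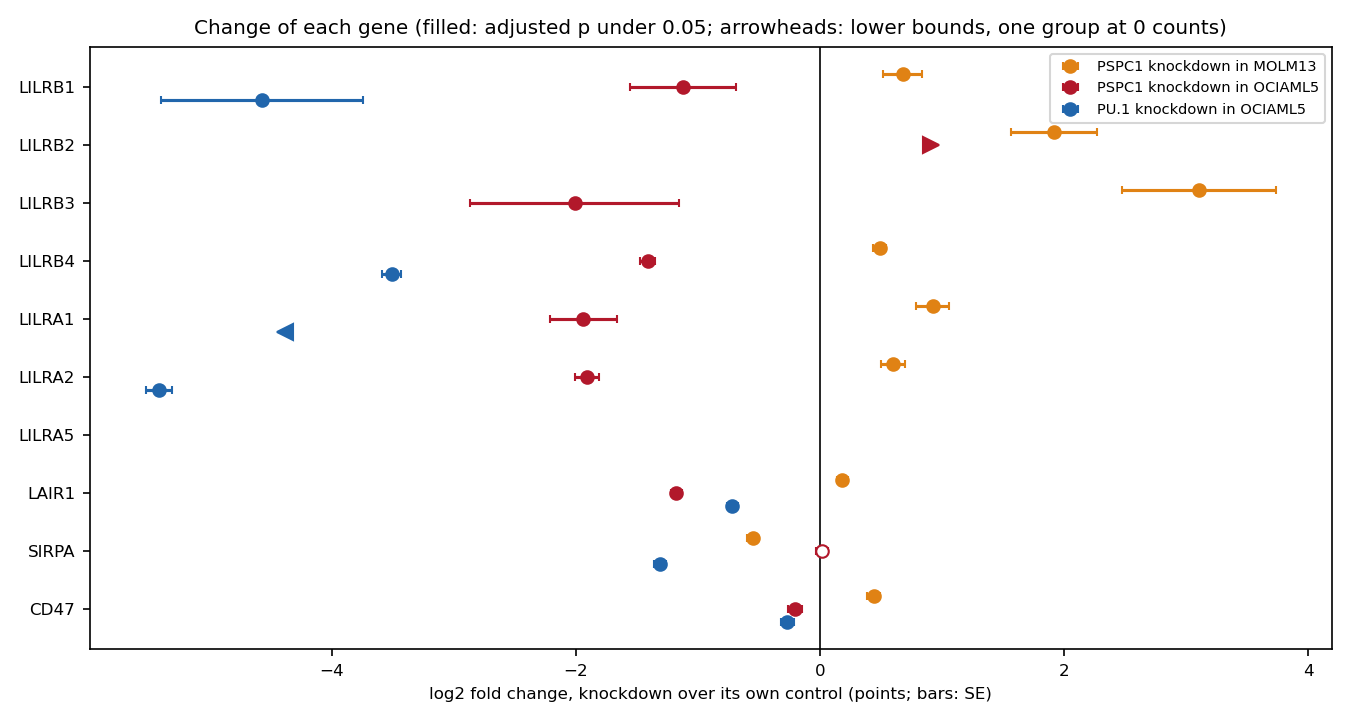
Log2 fold change of each gene, knockdown over its own control, with bars of 1 SE, for the 3 knockdowns; filled points passed an adjusted p of 0.05, and arrowheads are lower bounds where one group had 0 counts. The tested LILR genes, LAIR1 and CD47 lie right of 0 for PSPC1 knockdown in MOLM13, and LILRA2, LILRB1, LILRA1 and LILRB4 lie farthest left for PU.1 knockdown.

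PU.1 knockdown in OCIAML5 lowered every member that could be tested. LILRA2 fell from 80.6 and 74.5 CPM in controls to under 2 CPM in each library. LILRA1 and LILRB1 were already scarce, at most 1.07 CPM in any control library, and fell to 2 counts or fewer in each library. LILRB4 stood 11.4-fold lower and SIRPA 2.48-fold lower, and LAIR1 and CD47 fell less. All 7 members tested passed, 0 higher and 7 lower, where 60.4% of the 16861 genes tested passed (29.6% higher and 30.9% lower). The median log2 fold change of the 7 was -3.51, or -3.49 with the floor, against 0.02 over all genes. Scaling by library size alone moved the split of all calls to 6583 higher and 3995 lower, against 4983 higher and 5206 lower with TMM scaling, and moved the median of all genes to 0.17. All 7 members stayed lower and called.

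LILRA2 stood at 1.81 and 1.85 CPM in PU.1-knockdown libraries, against 80.6 and 74.5 CPM in controls. This was the largest fold change of a member with counts in every library, at 42.7-fold lower (log2 fold change -5.41 ± 0.11, SE, n = 2 per group; adjusted p = 1.1e-51, edgeR quasi-likelihood test). LILRB4 stood at 8.79 and 9.60 CPM after knockdown, against 106 and 102 CPM in controls (-3.51 ± 0.074, SE; adjusted p = 1.6e-49). LILRA1 had 0 counts in both knockdown libraries and 69 over both controls, at least 20.8-fold lower against the floor of 3 counts over the group (adjusted p = 1.0e-08). LILRB1 had 0 and 2 counts after knockdown and 29 and 28 in controls, and the level in controls was 25.8 times that after knockdown with a 95% counting interval of 6.82 to 218 (adjusted p = 2.0e-06). All 4 genes had both knockdown libraries below both controls, but the share of all genes that separate in this way was not computed.

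SIRPA stood at 70.0 and 72.4 CPM after PU.1 knockdown, against 177 and 173 CPM in controls (log2 fold change -1.31 ± 0.049, SE; adjusted p = 5.4e-35). LAIR1 stood at 146 and 152 CPM after knockdown, against 241.6 and 242.4 CPM in controls (-0.72 ± 0.044, SE; adjusted p = 1.6e-23). CD47 stood at 98.6 and 94.1 CPM after knockdown and at 111 and 118 CPM in controls (-0.27 ± 0.051, SE; adjusted p = 5.7e-06). The groups of these 3 genes did not overlap, which was likewise not counted over all genes. LILRB3 had 5 and 4 counts after knockdown and 4 and 5 in controls, and LILRB2 and LILRA5 had none in these 4 libraries, so none of the 3 was tested. B cell markers summed to 1.17 and 1.20 CPM after PU.1 knockdown, against 5.60 and 5.84 CPM in controls, and their part in the fall of LILRB1 was not tested. T and NK cell markers summed to 4.64 and 5.53 CPM after PU.1 knockdown and to 1.64 and 2.36 CPM in controls. The myeloid markers summed to between 463 and 490 CPM after knockdown and between 573 and 575 CPM in controls, lower with the members, and 1 of 7 tested rose and 6 fell. Over all genes tested 60.4% passed there, and the markers' part in the result was not tested.

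The 2 knockdowns in OCIAML5 were compared by testing the difference of their effects, each against its own controls, in the 8 joined libraries. PSPC1 itself was lower after PU.1 knockdown, at 58.4 and 56.9 CPM against 102 and 109 CPM in controls (log2 fold change -0.89 ± 0.055, SE; adjusted p = 2.1e-23), so the PU.1-knockdown cells also held less PSPC1 RNA. Of 8 members tested, 6 differed, 1 higher and 5 lower under PU.1 knockdown, where 45.6% of all genes tested passed (22.8% higher and 22.9% lower). The median difference of the 8 was -1.70, against 0.00 over all genes. LILRA2 fell further under PU.1 knockdown, with a difference of -3.49 ± 0.16 on the log2 scale (SE; adjusted p = 4.2e-23), and so did LILRB4 with -2.08 ± 0.10 (adjusted p = 6.7e-22). SIRPA differed by -1.31 ± 0.07 (SE; adjusted p = 1.2e-20), with no call under PSPC1 knockdown. LILRB1 differed by -3.40 ± 1.14 (adjusted p = 0.012), a call lost without PU.1 knockdown replicate 1 (-2.64, adjusted p = 0.099), and the difference was -6.21 without PU.1 knockdown replicate 2. LILRA1 differed by a fitted -5.72 (adjusted p = 6.8e-04), which with 0 counts after PU.1 knockdown is no bound.

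LAIR1 was the exception. It fell more under PSPC1 knockdown than under PU.1 knockdown, a difference of 0.48 ± 0.067 (SE; adjusted p = 7.1e-08). CD47 fell under both, with a difference of -0.04 ± 0.079 (SE; adjusted p = 0.69), and LILRB3 did not pass (2.19 ± 1.32, SE; adjusted p = 0.18).

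The members were also compared between the control cells of the 2 lines. Of 9 members tested between MOLM13 and OCIAML5 controls of the PSPC1 experiment, 5 were higher in MOLM13 and 1 lower, where 60.6% of all genes tested passed (30.0% higher and 30.7% lower), a share close to that of the members. The median difference of the 9 was 0.39 on the log2 scale, against -0.01 over all genes. LILRB1 was higher in MOLM13 by 3.85 ± 0.25 on the log2 scale (SE; adjusted p = 3.4e-19) and LILRA1 by 2.32 ± 0.17 (adjusted p = 1.3e-16). LILRB2 had 77 counts over the MOLM13 controls and 0 over the OCIAML5 controls, at least 22.8-fold higher. SIRPA was higher by 0.78 ± 0.047 (adjusted p = 3.0e-20) and LAIR1 by 0.39 ± 0.044 (adjusted p = 6.7e-11), while LILRA2 was lower by -1.14 ± 0.095 (adjusted p = 4.1e-15). LILRB4 (0.11 ± 0.054, SE; adjusted p = 0.065), CD47 (0.00 ± 0.057, SE; adjusted p = 0.96) and LILRB3 (-0.59 ± 0.73, SE; adjusted p = 0.51) did not pass.

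Per kilobase of exon, SIRPA was the most abundant member in MOLM13 controls, at 58.3 and 55.6 CPM per kb. LAIR1 followed at 41.0 and 40.5 CPM per kb, then LILRB4 at 23.1 and 22.8 and CD47 at 14.1 and 14.4 CPM per kb. After PSPC1 knockdown in MOLM13 this order changed, with LAIR1 first at 47.0 and 46.4 CPM per kb and SIRPA second at 38.5 and 40.1 CPM per kb. In OCIAML5 PSPC1-knockdown libraries SIRPA led at 32.9 and 33.0 CPM per kb and LILRB4 came after LAIR1 and CD47 at 8.25 and 7.37 CPM per kb. In their controls SIRPA stood at 33.0 and 33.1 CPM per kb, LAIR1 at 31.0 and 31.0 CPM per kb and LILRB4 next at 20.7 and 21.7 CPM per kb. After PU.1 knockdown LAIR1 led at 18.0 and 18.8 CPM per kb, with SIRPA at 13.8 and 14.3 and LILRB4 at 1.39 and 1.52 CPM per kb. In the PU.1 controls LILRA2, at 15.1 and 13.9 CPM per kb, and CD47, at 13.5 and 14.4 CPM per kb, overlapped. The 2 sets of OCIAML5 controls were not tested against each other, but LILRA2 averaged 77.6 CPM in those of the PU.1 experiment and 53.8 CPM in those of the PSPC1 experiment. LILRA1 averaged 0.971 CPM in those of the PU.1 experiment and 3.84 CPM in those of the PSPC1 experiment, and LILRB3 averaged 0.125 CPM in those of the PU.1 experiment and 0.4995 CPM in those of the PSPC1 experiment.

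The summed level of the 7 LILR genes was 56.4 and 58.4 CPM per kb in MOLM13 PSPC1-knockdown libraries, against 37.0 and 35.9 CPM per kb in their controls. In OCIAML5 it was 11.4 and 10.4 CPM per kb after PSPC1 knockdown and 31.6 and 33.7 CPM per kb in controls, and 1.77 and 1.90 CPM per kb after PU.1 knockdown and 32.3 and 30.5 CPM per kb in controls. LILRB4 made up most of this sum in every group. Its share was 56.7% ± 0.54 (SD, n = 2) after PSPC1 knockdown in MOLM13 and 63.1% ± 0.86 in controls. In OCIAML5 its share was 71.8% ± 0.87 after PSPC1 knockdown and 64.9% ± 0.89 in controls, and 79.0% ± 0.99 after PU.1 knockdown and 52.4% ± 0.81 in controls. LILRA1 and LILRB1 together took a visible share in MOLM13 alone, as the plot of shares shows. LILRA1 held 17.8% after PSPC1 knockdown and 14.6% in controls there, and at most 3.71% in any OCIAML5 library.

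**Figure D3:**
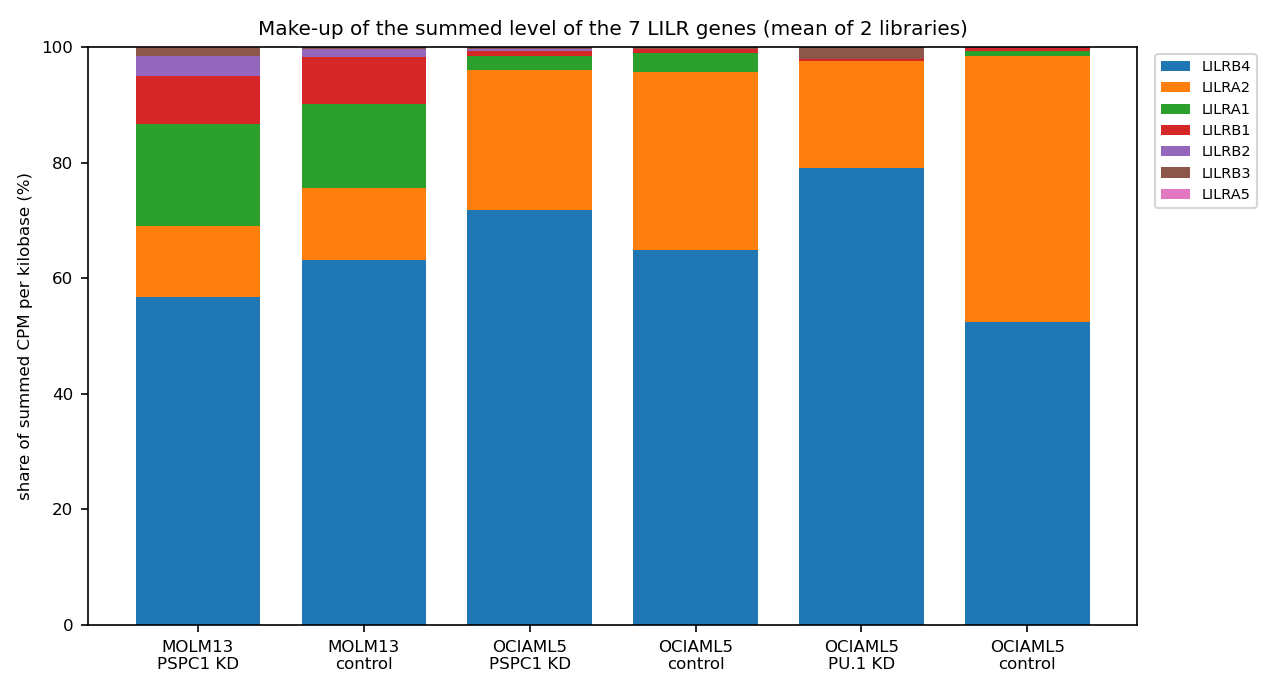
Share of each LILR gene in the summed level of the 7 LILR genes (percent of CPM per kilobase of exon, mean of 2 libraries) in the 6 groups, each knockdown left of its control. LILRB4 and LILRA2 fill over 95% of the bar in the OCIAML5 groups, and LILRA1 and LILRB1 take over 20% in the MOLM13 groups.

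The stretch of chromosome 19 between LILRB3 and the end of the receptor cluster (54216278 to 54713453) holds 16 protein-coding genes, 8 of them members, 4 other receptor genes of the same families and 4 unrelated genes. Of the unrelated genes, 2 rose in all 3 comparisons. TTYH1, which encodes a tweety-family membrane protein, averaged 7.04 CPM after PSPC1 knockdown in OCIAML5 and 0.298 CPM in controls (log2 fold change 4.56), and it also rose in MOLM13 (2.03) and after PU.1 knockdown (1.68). LENG8 averaged 489 CPM after PSPC1 knockdown in OCIAML5 and 260 CPM in controls (0.93), and it rose in MOLM13 (1.13) and after PU.1 knockdown (0.34). LENG9 passed only after PSPC1 knockdown in OCIAML5 (-0.45, adjusted p = 0.0091), and CDC42EP5 was not tested. These 4 genes are named as the ones that lie in the stretch. Of the other receptors, LAIR2, a secreted relative of LAIR1, averaged 0.083 CPM after PSPC1 knockdown in OCIAML5 and 0.495 CPM in controls and passed the test there (-2.64, adjusted p = 0.022), and LILRA4 and LILRA6 passed in neither PSPC1 comparison. The plot in chromosomal order shows LAIR1 lower and its neighbours TTYH1 and LENG8 higher in both OCIAML5 comparisons.

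**Figure D4:**
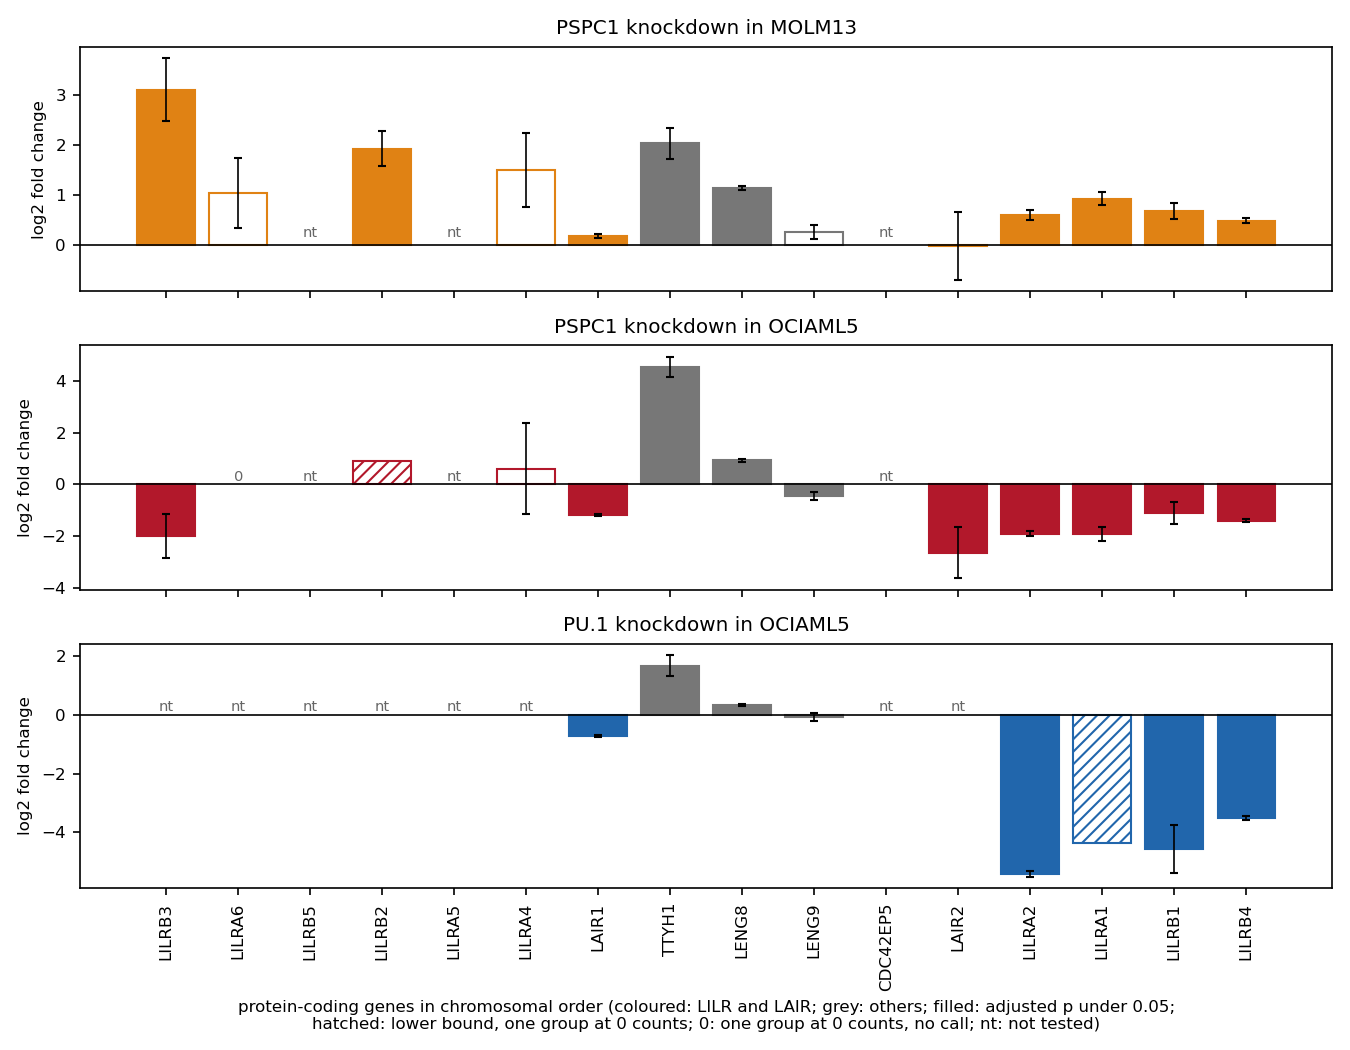
Log2 fold change, knockdown over control, of the 16 protein-coding genes of the chromosome 19 stretch in chromosomal order, with bars of 1 SE; receptors are coloured and other genes grey, filled bars passed an adjusted p of 0.05, hatched bars are lower bounds, and nt marks genes not tested. The axes of the 3 panels differ in scale, and TTYH1 and LENG8 rise in all 3 while LAIR1, LILRA2, LILRA1, LILRB1 and LILRB4 fall in the lower 2.

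The genes that receptor ITIMs act through were counted in the same way. Of 11 phosphatases and Src-family kinases tested, 6 were higher and 4 lower after PSPC1 knockdown in MOLM13, 2 higher and 4 lower in OCIAML5, and 3 higher and 7 lower after PU.1 knockdown, with medians of 0.13, 0.08 and -0.31. Of all genes 57.0%, 56.0% and 60.4% passed in these comparisons, and the share in OCIAML5 after PSPC1 knockdown was near that background. PTPN6, which encodes SHP-1, stood at 51.3 and 50.2 CPM after PU.1 knockdown, against 292 and 290 CPM in controls (log2 fold change -2.54, adjusted p = 5.8e-52). After PSPC1 knockdown PTPN6 stood at 518 and 534 CPM in MOLM13, against 436 and 434 CPM in controls (0.26), and at 356 and 355 CPM in OCIAML5, against 415 and 434 CPM in controls (-0.24). INPP5D, which encodes SHIP, stood at 469 and 498 CPM after PSPC1 knockdown in MOLM13, against 340 and 342 CPM in controls (0.49), and at 400.4 and 412 CPM in OCIAML5, against 559 and 546 CPM in controls (-0.42). Both phosphatase genes thus moved up in MOLM13 and down in OCIAML5, and the difference between lines passed for PTPN6 (0.50, adjusted p = 1.3e-09) and INPP5D (0.91, adjusted p = 7.3e-18).

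PTPN11, which encodes SHP-2, fell in all 3 comparisons, at -1.35 and -0.93 after PSPC1 knockdown in MOLM13 and OCIAML5 and at -0.96 after PU.1 knockdown. Of the kinases, YES1 rose after PSPC1 knockdown in both lines (1.14 and 1.42). LYN, a Src-family kinase of myeloid cells, fell after PU.1 knockdown (-0.88). CSK, which restrains Src-family kinases, fell after PSPC1 knockdown in OCIAML5 (-0.40). The values of PTPN6 after PSPC1 knockdown are given beyond the 4 smallest p-values of the list, for its role at the ITIM.

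**Figure D5:**
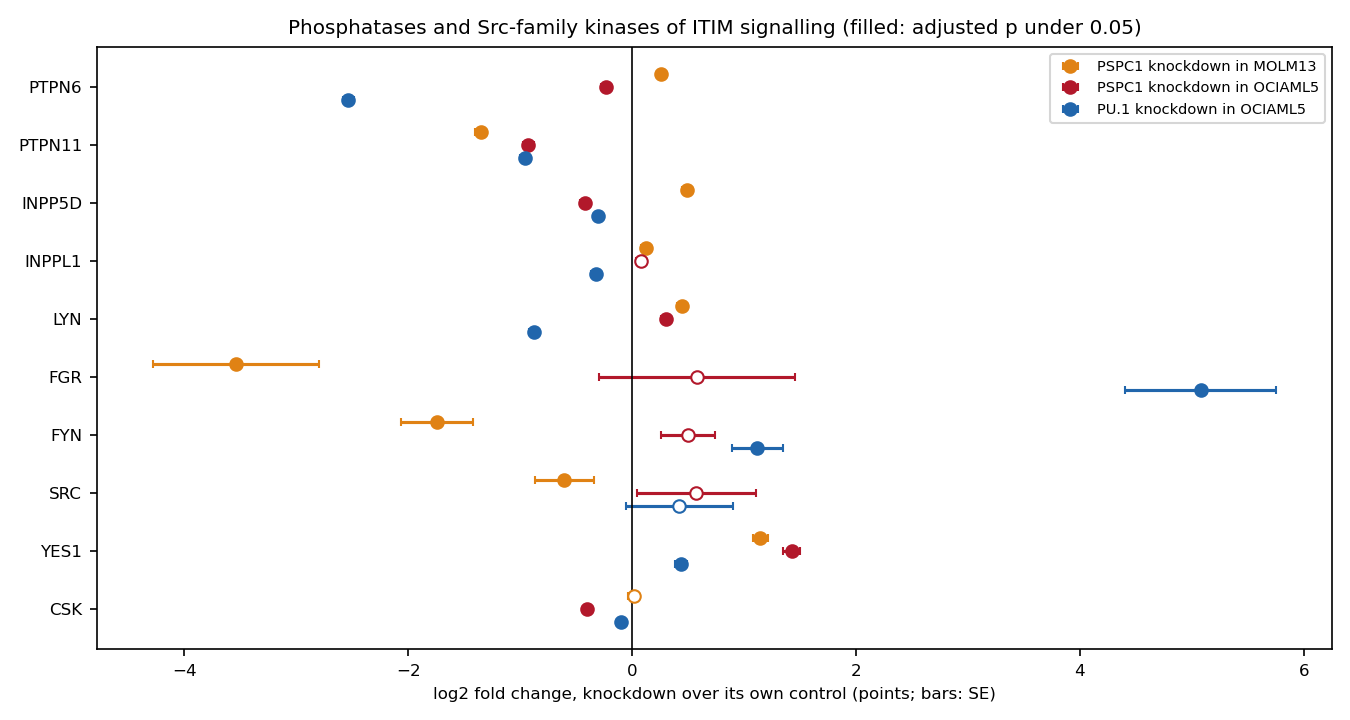
Log2 fold change, knockdown over its own control, with bars of 1 SE, of 10 of the 11 phosphatases and Src-family kinases of ITIM signalling in the 3 knockdowns; filled points passed an adjusted p of 0.05. PTPN6 lies at -2.54 for PU.1 knockdown, slightly right of 0 for PSPC1 knockdown in MOLM13 and slightly left of 0 in OCIAML5. PTPN11 lies left of 0 for all 3.

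Ligands and partners of the receptors were counted next. Of 16 ligands and partners tested of 23 listed, 7 were higher and 1 lower in MOLM13, 8 higher and 0 lower in OCIAML5, and 6 higher and 6 lower after PU.1 knockdown, with medians of 0.32, 0.24 and 0.16. In each line 8 of 16 passed after PSPC1 knockdown, where 57.0% of all genes passed in MOLM13 and 56.0% in OCIAML5. After PU.1 knockdown 60.4% of all genes passed. HLA-B, a class I ligand of LILRB1 and LILRB2, stood at 556 and 561 CPM after PSPC1 knockdown in MOLM13, against 369 and 349.6 CPM in controls (log2 fold change 0.62). In OCIAML5 HLA-B stood at 816 and 824 CPM after PSPC1 knockdown and 489 and 533 CPM in controls (0.70), while PU.1-knockdown libraries held 227 and 234 CPM and their controls 399.8 and 396 CPM (-0.80). HLA-C moved likewise after PSPC1 knockdown in MOLM13 (0.38) and OCIAML5 (0.29), B2M, the class I light chain, rose in OCIAML5 (0.47), and HLA-E rose in MOLM13 (0.82) and after PU.1 knockdown (0.75). Reads of HLA genes are shared among near-identical copies, so their split is uncertain.

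CALR, the surface pro-phagocytic partner that opposes CD47, fell after PSPC1 knockdown in MOLM13 (-1.08) and rose after PU.1 knockdown (1.06). THBS1, a secreted CD47 ligand, stood at 176 and 179 CPM after PU.1 knockdown, against 0.826 and 0.871 CPM in controls (7.69). RTN4, a ligand of LILRB2, rose after PSPC1 knockdown in OCIAML5 (0.35). Of 8 genes listed as reported downstream genes in leukemia, 3 of 7 tested rose and 0 fell in MOLM13, 2 rose and 2 fell in OCIAML5, and 3 of 5 tested rose and 0 fell after PU.1 knockdown, with medians of 0.17, -0.02 and 0.14. Over all genes tested 57.0%, 56.0% and 60.4% passed, and this list was near that background in both OCIAML5 comparisons. NFKB2 rose in all 3 comparisons (0.91, 0.77 and 0.66). PLAUR, the urokinase receptor, fell after PSPC1 knockdown in OCIAML5 (-1.0) and rose after PU.1 knockdown (0.50).

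Other ITIM receptors of myeloid cells showed mixed directions. Of 9 tested of 12 listed, 2 rose and 3 fell after PSPC1 knockdown in MOLM13 and 1 rose and 3 fell in OCIAML5, and of 8 tested 4 rose and 4 fell after PU.1 knockdown, with medians of 0.33, -0.64 and 0.15. The shares of all genes tested that passed were 57.0%, 56.0% and 60.4%, and the share of this list in MOLM13 was near that background. CD300A, an inhibitory receptor for phosphatidylserine, fell in all 3 (-0.84, -2.00 and -4.01). CLEC12A, a C-type lectin of leukemic blasts, stood at 1.03 and 0.954 CPM after PU.1 knockdown and at 19.4 and 21.9 CPM in controls (-4.40). PECAM1 fell after PSPC1 knockdown in MOLM13 (-0.27) and rose after PU.1 knockdown (1.17). MILR1, an inhibitory receptor of mast cells, rose in MOLM13 (0.94).

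Among activating receptors and ITAM adaptors, 1 of 11 tested rose and 2 fell after PSPC1 knockdown in MOLM13, 2 rose and 4 fell in OCIAML5, and 2 of 8 tested rose and 4 fell after PU.1 knockdown, with medians of -0.13, -0.41 and -0.51. Over all genes tested 57.0%, 56.0% and 60.4% passed, and the share of this list after PSPC1 knockdown in OCIAML5 was near that background. TYROBP, which encodes the adaptor DAP12, stood at 87.3 and 82.9 CPM after PSPC1 knockdown in MOLM13, against 39.2 and 35.3 CPM in controls (log2 fold change 1.18), and it also rose in OCIAML5 (0.84) and fell after PU.1 knockdown (-3.03). FCGR2A, an activating IgG receptor, fell after PSPC1 knockdown in OCIAML5 (-1.71) and after PU.1 knockdown (-0.60). SYK, the kinase recruited to ITAMs, fell after PSPC1 knockdown in MOLM13 (-0.26) and OCIAML5 (-0.41). FCER1G, the FcRγ adaptor that LILRA receptors need, was at most 0.834 CPM in any library, and it is named for that role after its values were seen.

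Of the related receptors, 0 of 8 tested rose and 1 fell after PSPC1 knockdown in MOLM13, 0 rose and 2 fell in OCIAML5, and 2 of 6 tested rose and 3 fell after PU.1 knockdown, with medians of -0.01, 0.00 and -0.53. With the floor of 3 counts the median after PSPC1 knockdown in OCIAML5 was -0.31. The shares of all genes tested that passed in these comparisons were 57.0%, 56.0% and 60.4%. SIRPB1, the activating relative of SIRPA, stood at 14.0 and 14.0 CPM after PSPC1 knockdown in MOLM13, against 63.0 and 58.6 CPM in controls (log2 fold change -2.13), a larger fall than that of SIRPA, and it fell after PSPC1 (-0.58) and PU.1 knockdown (-1.40) in OCIAML5. OSCAR, a collagen receptor encoded beside the LILR genes, rose after PU.1 knockdown (0.88), and SIRPB2 fell (-1.32). SIRPA shares 10.6% of its stretches of 50 transcript bases with SIRPB1.

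Genes whose levels ran most like a member across the 12 libraries were named as a description, with no test, among 10685 genes with a mean of at least 5 CPM. The libraries share cell line, experiment and controls, so high values are common. For LILRB1 they were MS4A14 (Pearson r of 0.997), TRIP6 (0.995) and AC125603.2 (0.993), and for LILRB4 they were FRAT2 (0.992), SH3KBP1 (0.991) and RAP1GDS1 (0.988). For LAIR1 they were HILPDA (0.986), SAMD10 (0.982) and MIR155HG (0.981), for SIRPA RPS6KC1 (0.984), IDH3B (0.976) and VAMP7 (0.974), and for CD47 ARHGAP26 (0.951), QSOX1 (0.949) and NGLY1 (0.948).

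LILR genes are paralogs, so the division of reads among them is uncertain. Of the stretches of 50 bases in their annotated transcripts, LILRB3 shares 27.0% with other genes, mostly LILRA6, and LILRB1 17.6%, LILRB2 14.1%, LILRB4 14.2%, LILRA2 18.1% and LILRA1 5.29%. For LILRB4 and LILRA2 most of this lies in exons shared on the same strand with VN1R105P and AC245036.5, which overlap 13.0% and 15.8% of their exon bases. LAIR1 shares 4.76% and CD47 0.0962%. LILRB1 overlaps the antisense gene LILRB1-AS1 over 7.09% of its exon bases and SIRPA overlaps AL117335.1 over 4.10%. No source used here says whether counting used strand, so reads of these antisense pairs cannot be told apart. LILRB1-AS1, VN1R105P and AC245036.5 averaged 0.0 CPM in every group. How counting treated reads in exons shared by genes is likewise not stated, so 0.0 CPM does not show that these genes were silent. Exon lengths behind the levels per kilobase include the shared bases. Reads left uncounted there would make the per-kilobase levels of LILRB4 and LILRA2 too low and shift their shares of the LILR sum.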

How the data were processed

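Both tables hold raw counts per gene as the authors deposited them, 1 column per library, 8 for PSPC1 and 4 for PU.1. The submitters' processing notes name GRCh38, DESeq2 1.36.0, HTSeq 2.0.2, STAR 2.7.10a and Trim Galore 0.6.7. No role, annotation release or strand setting is stated there. The statistics were run with edgeR 4.0.16 in R 4.3.3 (filterByExpr, TMM, quasi-likelihood F test), in 1 model of 8 libraries for PSPC1, 1 of 4 for PU.1 and 1 of the 8 OCIAML5 libraries joined. P-values were adjusted by Benjamini-Hochberg over all genes tested, with a threshold of 0.05, in 6 comparisons. The biological coefficient of variation was 4.73%, 4.08% and 4.50%. The 2 libraries of a group differed by 2.61 to 4.96 times the variance expected of counting error, so no library was a copy of another.

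Levels are CPM with TMM over all 12 libraries, divided by exon length (GENCODE 29) where genes are compared. Against a group at 0 counts, folds use a floor of 3 counts over the group. Intervals and floors cover counting error only. Where groups are said not to overlap, the share of all genes whose groups lie apart was not computed. The members and gene lists were chosen with earlier results of these data known. Named genes are the members, PSPC1, SPI1, up to 4 genes of each list per comparison with the smallest adjusted p, the 3 genes most like 5 of the members, and those said to be named otherwise. List medians were also computed with the floor. The values of 1 gene of the signalling list, counted in its totals, are not reported here. Alternatives were DESeq2 1.42.0, RLE size factors, library size alone, no filter on low counts, a filter of 1 CPM in 2 libraries, an adjusted p of 0.01, a replicate block, the 4 libraries of a line alone, the 8 joined libraries for PU.1 and leaving out each library. The method was tested on simulated data. Python 3.11.15, SciPy 1.17.1 and matplotlib 3.10.9 made the tables and plots. Promoter sequences are from RefSeq.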

Additional observations from a re-analysis of the deposited data

Results flagged for a closer look

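The PSPC1 knockdown effect differed between MOLM13 and OCIAML5 by a direct test for 8 of 9 members tested. Of all genes tested 30.5% passed. Values are in log2 units of MOLM13 minus OCIAML5. The differences were 2.86 for LILRA1, 2.51 for LILRA2, 1.90 for LILRB4, 1.80 for LILRB1, 1.36 for LAIR1 and 0.64 for CD47. For LILRB3 the difference was 5.11, on 5 and 17 counts in the OCIAML5 knockdown and control groups. SIRPA differed the other way, at -0.57.

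In OCIAML5 the PU.1 and PSPC1 knockdown effects differed for 6 of 8 members tested, where 45.6% of all genes tested passed. Values are PU.1 minus PSPC1, and the call of LILRB1 was lost without PU.1 knockdown replicate 1. The differences were -3.49 for LILRA2, -3.40 for LILRB1, -2.08 for LILRB4 and -1.31 for SIRPA, and -5.72 for LILRA1, a fitted value that is no bound because LILRA1 had 0 counts after PU.1 knockdown. LAIR1 differed by 0.48, the single one of these 6 with the deeper fall after PSPC1 knockdown.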

How the results depend on the processing

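No called value changed sign. Of 756 values of single members recomputed under an alternative, 722 kept their direction and side of the threshold, 22 lost a call, 1 gained one and 11 changed sign without passing the test in either case. Those were CD47 between the knockdowns (0.0089 with library size alone, and 0.0076, 0.0073, 0.014 and 0.0064 without replicate 2 of each group), LILRB3 between the control cells (0.028 without MOLM13 control replicate 2) and CD47 between the control cells (-0.0051 with DESeq2, -0.0056 with RLE, -0.051 with library size alone, and -0.0076 and -0.045 without control replicate 2 of MOLM13 and OCIAML5). Leaving out 1 library gave -0.085 to 0.014, -1.99 to 0.028 and -0.045 to 0.057 for these 3. The count of members called after PSPC1 knockdown in OCIAML5 was 8 in the fit reported and 5 both at an adjusted p of 0.01 and with the 4 libraries of the line alone. Leaving out 1 library gave 4 to 8 members there (4 without knockdown replicate 1, 5 without control replicate 1), 9 to 9 in MOLM13, 7 to 7 after PU.1 knockdown, 8 to 8 for the difference between lines, 5 to 6 for the difference between knockdowns and 6 to 7 between the control cells. Calls that depended on the setting were those of LILRB1, LILRB2, LILRB3 and CD47 after PSPC1 knockdown in OCIAML5, LILRB1 between the knockdowns (adjusted p = 0.099 without PU.1 knockdown replicate 1) and LILRB4 between the control cells, which passed without OCIAML5 control replicate 2 (adjusted p = 0.039). LILRB3 after PSPC1 knockdown in OCIAML5 missed the threshold with DESeq2 (adjusted p = 0.057) and with library size alone (adjusted p = 0.051), where CD47 missed it too (adjusted p = 0.059). LILRB1 missed it without a filter on low counts (adjusted p = 0.053). Replicate numbers shared between groups did not pair the libraries (correlations of deviations of 0.013, -0.0048 and -0.052), and with the replicate number as a block the counts were 9, 8 and 7 members for the 3 knockdowns and 8 and 6 for the 2 differences. Depth limits LILRB1, LILRB2, LILRB3 and LILRA5 in OCIAML5.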
